A study of Mus musculus with 12 samples.

Results

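The genes described here are 10 that make and use activated fatty acids: the long-chain acyl-CoA synthetase genes Acsl1, Acsl3, Acsl4 and Acsl5, the glycerolipid synthesis genes Gpam, Agpat2, Lpin1, Dgat1 and Dgat2, and the phospholipid remodelling gene Lpcat3. They were taken by symbol from a table of 31332 genes, all 10 were found, and all 10 were among the 17268 genes with enough counts to test. The table holds RNA read counts of thymic epithelial cells sorted from C57BL6/J mice at 2 months of age, in 12 libraries. Cortical (cTEC) and medullary (mTEC) cells were each taken from control mice with floxed LXR alpha and LXR beta and from mice with the same floxed alleles and FoxN1-Cre, with 3 libraries in each of the 4 groups. All 4 groups thus carry the floxed alleles, the labels name no Cre for the controls, and the Cre is driven by FoxN1, a gene of the thymic epithelium itself. The mTEC libraries are numbered 1 to 3 for controls and 4 to 6 for Cre, and the cTEC libraries 7 to 9 for controls and 10 to 12 for Cre.

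A fatty acid must be joined to coenzyme A before a cell can build it into a lipid, and the ACSL enzymes do this for long chains. Gpam encodes the mitochondrial glycerol-3-phosphate acyltransferase, which adds the first chain to glycerol-3-phosphate, and Agpat2 encodes the enzyme that adds the second to give phosphatidic acid. Lipin 1 (Lpin1) removes the phosphate to leave diacylglycerol, and the unrelated enzymes DGAT1 and DGAT2 add the last chain to give triglyceride. LPCAT3 swaps polyunsaturated chains into membrane phospholipids. Liver X receptors (LXRs) are oxysterol-activated nuclear receptors known to drive lipid synthesis in liver, and Lpcat3 and Acsl3 are known LXR targets in other cells.

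The libraries held from 4804697 to 11159013 counts. Levels are CPM, the counts of a gene scaled to a fixed total of counts in tested genes and adjusted by TMM factors, and 1 count was worth between 0.0898 and 0.194 CPM. Nr1h2 (LXR beta) was at 168, 158 and 192 CPM in the control cTEC libraries and 119, 102 and 124 CPM in Cre cTEC, and at 110, 126 and 132 CPM in control mTEC and 96.1, 71.1 and 70.4 CPM in Cre mTEC. The groups were apart in both cell types, but whole-gene counts include reads outside a floxed exon, so they do not measure deletion. Nr1h3 (LXR alpha) stayed between 5.84 and 10.7 CPM in all libraries. Foxn1 itself was at 73.2 to 166 CPM with Cre and 271 to 354 CPM in controls in cTEC, and at 34 to 156 and 232 to 291 CPM in mTEC (adjusted p = 0.00851 and 0.0216, edgeR, and up to 0.131 and 0.185 in alternative fits). The part of Foxn1 in the genotype results was not tested. The 9 cTEC markers summed to between 9060 and 20800 CPM in cTEC libraries and 1890 to 2720 CPM in mTEC libraries. The 11 mTEC markers summed to 1320 to 2650 CPM in cTEC and 6340 to 7700 CPM in mTEC. Aire averaged 864 CPM in control mTEC and 10.3 CPM in control cTEC, and Psmb11 averaged 17.5 and 354 CPM. The mTEC marker Ccl21a had no count in the 9 libraries outside Cre mTEC and at most 0.301 CPM in Cre mTEC. It thus marked neither cell type in these counts. Within Cre cTEC the libraries differed, and library 11 (cTEC marker sum 9740 CPM) lay within the control range of 9060 to 10900 CPM while libraries 10 and 12 stood at 20800 and 15500 CPM.

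Differences were tested with edgeR's quasi-likelihood test in 1 fit of all 12 libraries, and an adjusted p (Benjamini-Hochberg over all genes tested) under 0.05 was taken as passed. Whether a group's libraries came from separate animals is not stated in the labels, so p-values measure the spread between libraries, which may be technical. In cTEC, 2 of the 10 genes passed, both lower with Cre, where 9.01% of all genes passed and 3.38% passed as lower. In mTEC, 4 of the 10 passed, all lower with Cre, where 2.07% of all genes passed and 1.49% passed as lower. The median log2 fold change of the 10 genes was -0.08 in cTEC and -0.15 in mTEC, beside -0.02 and 0.01 for all genes tested. Every Cre library lay below every control library for 10.1% of all genes in cTEC and 12.8% in mTEC.

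**Figure D1:**
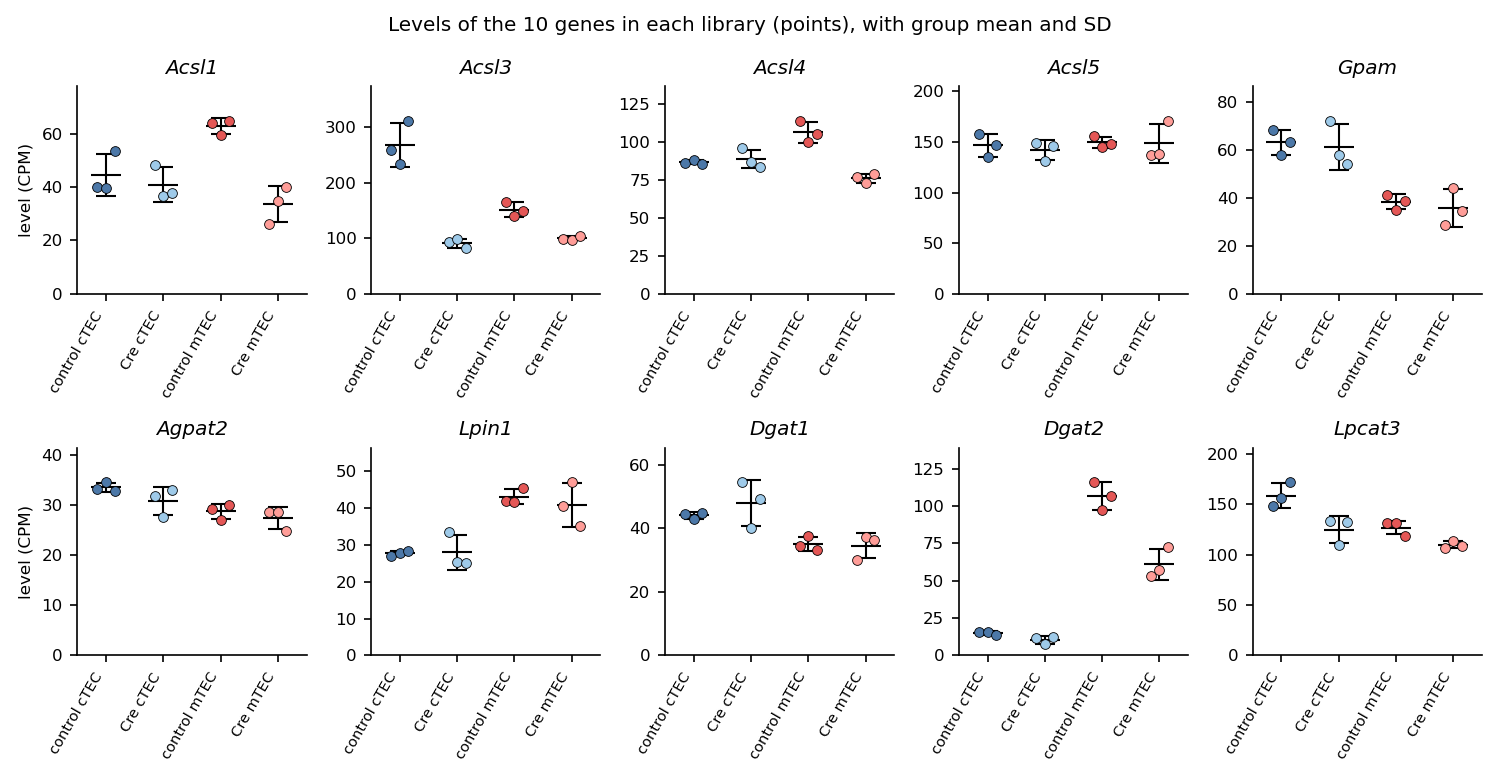
Level of each of the 10 genes in CPM (y axis from 0, its range set per panel) in the 4 groups on the x axis; points are libraries, horizontal marks are group means and bars are ± 1 SD. Acsl3 in control cTEC, from 234 to 312 CPM, stands above all other libraries, and Dgat2 lies at 53.2 CPM or more in every mTEC library and at 15.7 CPM or less in every cTEC library.

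Acsl3, whose product sits in the endoplasmic reticulum and on lipid droplets, had the largest fold change of the 10 with Cre. It was at 260, 234 and 312 CPM in the control cTEC libraries and at 92.9, 98.1 and 82.6 CPM in Cre cTEC. In control mTEC it was at 166, 140 and 150 CPM, and in Cre mTEC at 99.6, 97.7 and 104 CPM. No Cre library reached any control library of its cell type, and the Cre libraries of both cell types lay between 82.6 and 104 CPM. The log2 fold change was -1.56 in cTEC (SE 0.12, adjusted p = 2.73e-07, edgeR), a mean of 269 ± 39.8 against 91.2 ± 7.89 CPM (SD, n = 3 each), or 2.95-fold lower. In mTEC the log2 fold change was -0.59 (SE 0.12, adjusted p = 0.012), from 152 ± 13 to 101 ± 3.46 CPM. Leaving out library 1, 3 or 5 ended the mTEC call (adjusted p up to 0.0866). The fall was deeper in cTEC by 0.97 on the log2 scale (SE 0.17, adjusted p = 0.00293, edgeR interaction). This difference of effects passed for 3 of the 10 genes and for 4.01% of all genes. mTEC markers summed to 2360 to 2650 CPM in the control cTEC libraries and 1320 to 1540 CPM in Cre cTEC, and most of that sum was Krt5 and Krt14, which fell (log2 fold change -0.79 and -1.15). Of the 10 mTEC markers tested, 6 had a lower and 4 a higher fitted level in Cre cTEC, with a median log2 fold change of -0.70. Krt5 and Krt14 passed as lower, Fezf2 (0.76), Tnfrsf11a (0.83) and Cd40 (1.02) passed as higher, and 5 did not pass. The 9 cTEC markers summed to 9060 to 10900 and 9740 to 20800 CPM, with 6 higher and 1 lower. Fibroblast markers summed to 200 to 254 CPM in control cTEC and 167 to 356 CPM in Cre cTEC, with Col3a1 higher and Lum lower. Endothelial markers summed to 13.5 to 28 and 10.5 to 18.5 CPM, and 1 of 4 tested, Plvap, passed as lower. Macrophage and dendritic markers summed to 32.8 to 52.7 and 29.7 to 32.2 CPM, all 6 with a lower fitted level and none passing. The part of all these markers in the Acsl3 result was not tested. Control mTEC held less Acsl3 than control cTEC. In bulk RNA, fewer cells of a type and less RNA per cell cannot be told apart.

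The promoter of Acsl3 is shown because this gene fell in both cell types, that of Lpcat3 because it is a known LXR target with a smaller change, that of Acsl1 because the gene fell in mTEC, and that of Gpam as a gene that passed in neither. Each window runs from 250 bases before to 50 bases after a start site, from RefSeq on GRCm38.p6, a build other than the mm9 named by the submitters. Entries were found for 8 of the 10 genes, in 10 windows, and not for Dgat1 and Dgat2. The windows searched were scanned on both strands for CCAAT, for the sterol response element TCACNCCAC, and for the DR4 element that LXR with RXR is known to bind. The DR4 element was taken as AGGTCA, a spacer of 4 bases and AGGTCA again, with up to 2 mismatches in the 12 fixed letters. Capitals mark matches, and no DR4 match overlapped another motif. Acsl1 and Gpam each had another window, upstream, that is not printed. The windows printed for them are those with the sterol response element and the DR4 match. The windows are Acsl3 at chr1:78657575-78657874 (+ strand), Lpcat3 at chr6:124662854-124663153 (+ strand), the downstream Acsl1 start at chr8:46490716-46491015 (+ strand) and the downstream Gpam start at chr19:55099428-55099727 (- strand).
Acsl3: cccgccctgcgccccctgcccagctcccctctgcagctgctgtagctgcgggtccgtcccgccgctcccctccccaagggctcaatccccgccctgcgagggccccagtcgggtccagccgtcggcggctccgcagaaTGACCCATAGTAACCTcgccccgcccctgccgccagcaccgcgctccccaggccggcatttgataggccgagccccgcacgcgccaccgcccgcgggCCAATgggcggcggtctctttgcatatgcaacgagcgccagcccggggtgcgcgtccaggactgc
Lpcat3: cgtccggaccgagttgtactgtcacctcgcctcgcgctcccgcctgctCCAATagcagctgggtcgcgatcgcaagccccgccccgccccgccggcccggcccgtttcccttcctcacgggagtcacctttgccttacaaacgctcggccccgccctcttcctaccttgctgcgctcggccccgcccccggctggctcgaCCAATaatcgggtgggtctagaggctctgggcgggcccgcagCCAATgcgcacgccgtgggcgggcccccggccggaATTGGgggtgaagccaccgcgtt
Acsl1: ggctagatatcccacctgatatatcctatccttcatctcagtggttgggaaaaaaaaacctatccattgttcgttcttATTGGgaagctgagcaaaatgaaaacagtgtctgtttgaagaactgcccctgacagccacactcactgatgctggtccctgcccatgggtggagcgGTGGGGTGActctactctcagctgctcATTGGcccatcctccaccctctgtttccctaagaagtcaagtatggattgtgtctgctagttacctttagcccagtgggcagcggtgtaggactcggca
Gpam: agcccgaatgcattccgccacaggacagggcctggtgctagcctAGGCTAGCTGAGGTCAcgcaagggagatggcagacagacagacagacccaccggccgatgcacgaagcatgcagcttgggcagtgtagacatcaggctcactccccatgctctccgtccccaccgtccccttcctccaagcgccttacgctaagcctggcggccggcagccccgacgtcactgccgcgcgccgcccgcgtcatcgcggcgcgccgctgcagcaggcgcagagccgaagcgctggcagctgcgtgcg

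A DR4 match with 2 mismatches lay at -112 to -97 from the Acsl3 start, and another at -206 to -191 from the downstream of 2 Gpam starts. The window of the upstream Gpam start held CCAAT and no DR4 within this limit, and that of the upstream Acsl1 start held none of the motifs. Such a match was held by 3.02% of the 32817 windows of all genes, and an exact DR4 by 0.0152%. The Acsl3 window also held CCAAT, as did 37.4% of all windows, at -15 to -11 from its start. The Lpcat3 window held CCAAT 4 times over both strands and no DR4 within this limit. The sterol response element was matched in the downstream Acsl1 window, at -76 to -68 from that start, and in 1.24% of all windows. The windows of Acsl4, Agpat2 and Lpin1 held none of these motifs.

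Acsl1, a synthetase known from fat, liver and heart, fell in mTEC. Its 3 control mTEC libraries stood at 64, 59.4 and 64.8 CPM and the Cre mTEC libraries at 26.3, 34.6 and 40 CPM, which left a gap between the highest Cre and the lowest control library. In cTEC its libraries stood at 40.1, 39.7 and 53.4 CPM in the control libraries and 48.3, 36.5 and 37.7 CPM with Cre, and the groups overlapped. The mTEC log2 fold change was -0.90 (SE 0.15, adjusted p = 0.00473, edgeR), or 1.86-fold lower, and it passed in all 20 alternative fits. The cTEC value was -0.12 (95% interval -0.44 to 0.21, adjusted p = 0.793). The effects differed by 0.78 (SE 0.22, adjusted p = 0.0485), a call that was lost in 9 fits without 1 library and with length and GC offsets (adjusted p up to 0.13).

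Acsl4, the synthetase that favours arachidonic acid, also fell in mTEC. Its control mTEC libraries stood at 114, 100 and 105 CPM and the Cre mTEC libraries at 76.8, 72.9 and 78.6 CPM, with no overlap. In cTEC its libraries stood at 86.1, 88 and 85.6 CPM in the control libraries and 95.7, 86.9 and 83.8 CPM with Cre, and the groups overlapped. The mTEC log2 fold change was -0.49 (SE 0.10, adjusted p = 0.0124, edgeR), or 1.4-fold lower, a call that ended when library 1, 3 or 5 was left out (adjusted p up to 0.109). In cTEC it was 0.04 (95% interval -0.17 to 0.24, adjusted p = 0.914). The difference of the effects was 0.52 (SE 0.14, adjusted p = 0.0364), lost without a filter and without any 1 of libraries 1, 3, 5, 6, 7, 8, 9 and 10 (adjusted p up to 0.123). Markers of macrophages and dendritic cells summed to 241 to 317 CPM in control mTEC and 199 to 326 CPM in Cre mTEC, mostly Lyz2. Of these 6 markers, 5 had a lower and 1 a higher fitted level in Cre mTEC, and none passed. Fibroblast markers summed to 155 to 180 CPM in control mTEC and 96.8 to 137 CPM in Cre mTEC. Of the 6 fibroblast markers, 4 had a lower and 2 a higher fitted level in Cre mTEC, and 1 passed, Col1a1, as lower. The part of the cells behind both marker lists in the mTEC results was not tested.

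Acsl5, a synthetase of mitochondria and endoplasmic reticulum, stood at similar levels in all 4 groups. It ranged from 131 to 171 CPM over the 12 libraries. The log2 fold change was -0.05 in cTEC (95% interval -0.28 to 0.18) and -0.01 in mTEC (95% interval -0.24 to 0.22). These intervals leave room for a change of about the size that Lpcat3 showed in mTEC, but not for one like that of Acsl3 in either cell type.

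Per kb of transcript, which allows genes to be compared, Acsl3 and Acsl5 made up most of the ACSL family. The 4 synthetases and Acsl6, the remaining family member, summed to 127, 116 and 140 CPM per kb in control cTEC and 85.8, 79.8 and 78.7 CPM per kb in Cre cTEC. In mTEC the sums were 113, 99.9 and 105 CPM per kb in controls and 77.5, 78 and 89.5 CPM per kb with Cre. Every Cre sum was thus below every control sum, and the Cre sums of the 2 cell types overlapped. Acsl3 gave 53.2% ± 2.9 of this sum in control cTEC (SD, n = 3) and 28.4% ± 2.41 in Cre cTEC, while the share of Acsl5 went from 27.2% ± 2.27 to 41.1% ± 2.61. In mTEC Acsl3 gave 36.3% ± 0.921 and 31.3% ± 1.56, Acsl5 33.4% ± 0.869 and 42.8% ± 1.83, and Acsl1 10.4% ± 0.428 and 7.23% ± 1.08. Shares add up to the whole, and the level of Acsl5 itself did not pass in either cell type. Acsl6 stayed at 1.68% or less in every library.

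**Figure D2:**
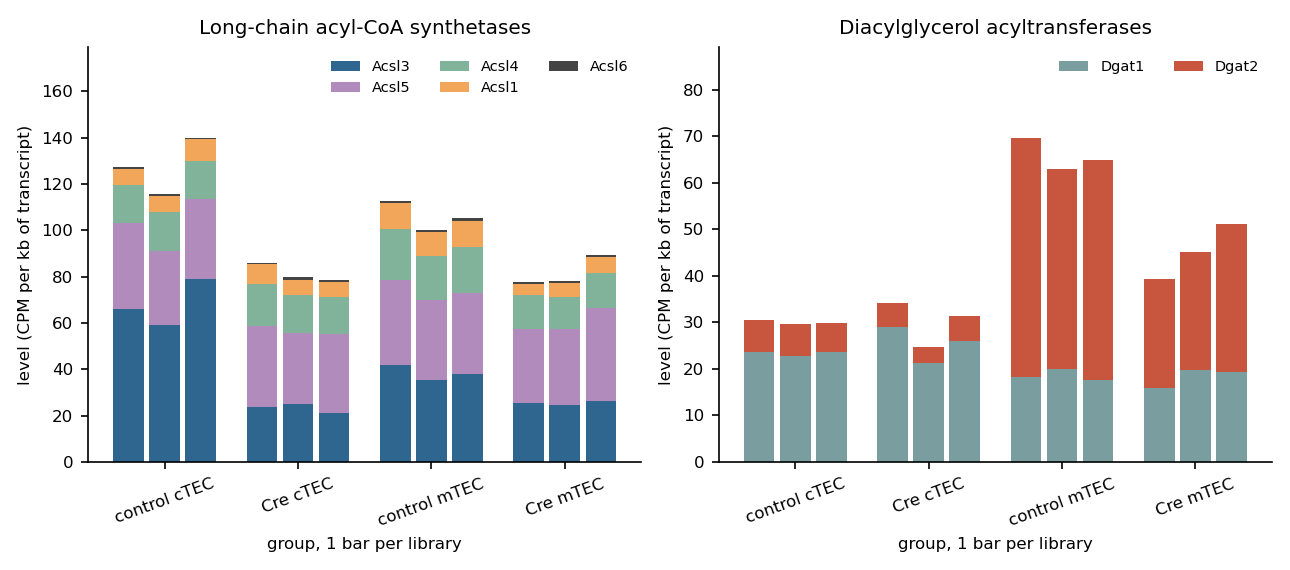
Level per kb of longest transcript (y axis, CPM per kb, from 0) of the ACSL genes (left) and the DGAT genes (right), stacked, with 1 bar per library in the 4 groups on the x axis. The Acsl3 block is largest in control cTEC, and the Dgat2 block is large in mTEC, where it shrinks from between 43.1 and 51.4 CPM per kb in controls to between 23.5 and 32 CPM per kb with Cre.

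Gpam, Agpat2 and Lpin1, which act in the first steps of glycerolipid synthesis, did not pass between genotypes in either cell type. Gpam was at 68.5, 57.9 and 63.5 CPM in the control cTEC libraries and 72.3, 57.9 and 54.2 CPM in Cre cTEC, and at 41.3, 35.2 and 38.8 CPM in control mTEC and 28.8, 44.3 and 34.5 CPM in Cre mTEC. Its log2 fold changes were -0.04 (95% interval -0.33 to 0.26) in cTEC and -0.10 (95% interval -0.41 to 0.21) in mTEC. The genotypes overlapped in both cell types. Agpat2 ranged from 24.8 to 34.5 CPM over all libraries, with log2 fold changes of -0.12 (95% interval -0.36 to 0.13) and -0.07 (95% interval -0.32 to 0.17). Lpin1 ranged from 25.1 to 33.5 CPM in cTEC and 35.1 to 47 CPM in mTEC, with log2 fold changes of 0.02 (95% interval -0.27 to 0.31) and -0.07 (95% interval -0.35 to 0.20).

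The last step, from diacylglycerol to triglyceride, divided between the 2 DGAT genes. Dgat2 was at 116, 97.5 and 107 CPM in control mTEC and 53.2, 57.2 and 72.5 CPM in Cre mTEC, with no overlap. In cTEC its libraries stood at 15.7, 15.5 and 13.7 CPM in the control libraries and 11.6, 7.58 and 12.1 CPM with Cre. These levels were low, and every Cre library lay below every control, as for 10.1% of all genes in cTEC. The mTEC log2 fold change was -0.81 (SE 0.13, adjusted p = 0.00441, edgeR), or 1.75-fold lower, and it passed in all 20 alternative fits. The cTEC log2 fold change of -0.49 (SE 0.18, adjusted p = 0.107) did not pass in the main fit or in any of the 20 alternatives, and the effects of the 2 cell types did not pass as different (0.32, 95% interval -0.15 to 0.79, adjusted p = 0.53). Dgat1 was at 44.6, 42.9 and 44.8 CPM in the control cTEC libraries and 54.5, 40.2 and 49.1 CPM in Cre cTEC, and from 30 to 37.5 CPM in all mTEC libraries. Its log2 fold changes were 0.13 (95% interval -0.13 to 0.39) in cTEC and -0.02 (95% interval -0.29 to 0.24) in mTEC.

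The DGAT genes summed to 65.8 ± 3.44 CPM per kb in control mTEC and 45.2 ± 5.9 in Cre mTEC (SD, n = 3 each), and to 30 ± 0.537 and 30 ± 4.83 CPM per kb in cTEC. Per kb of transcript, Dgat2 over Dgat1 was 2.82, 2.17 and 2.69 in control mTEC and 1.48, 1.28 and 1.67 in Cre mTEC. In cTEC the ratio was 0.294, 0.301 and 0.255 in controls and 0.178, 0.157 and 0.206 with Cre. Dgat2 was thus the more abundant of the pair in every mTEC library and the less abundant in every cTEC library. Every Cre ratio lay below every control ratio of its cell type, but the ratio itself was not tested. Fat cells are rich in DGAT2, and adipocyte markers summed to 120 to 172 CPM in control mTEC and 89.3 to 134 CPM in Cre mTEC, of which Fabp4 made up 138 and 97.5 CPM on average. The defining markers Adipoq and Plin1 averaged 2.65 and 0.387 CPM in control mTEC and 2.06 and 0.197 CPM in Cre mTEC. Cidec averaged 4.57 CPM in control mTEC and 2.61 CPM in Cre mTEC, and Pparg 3.8 and 2.25 CPM. Of the 5 adipocyte markers tested, 4 had a lower and 1 a higher fitted level in Cre mTEC, and none passed. The part of these cells in the Dgat2 result was not tested. In cTEC the adipocyte sum was 10.4 to 18.5 CPM in the control libraries and 12.4 to 15.7 CPM with Cre.

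Lpcat3, the remodelling enzyme, fell little. It was at 148, 156 and 172 CPM in the control cTEC libraries and 133, 110 and 132 CPM in Cre cTEC. In mTEC its libraries stood at 131, 131 and 119 CPM in the control libraries and 107, 114 and 109 CPM with Cre. The groups were apart in both cell types, with Cre lower, as they were for 10.1% of all genes in cTEC and 12.8% in mTEC. The cTEC log2 fold change was -0.34 (SE 0.10, adjusted p = 0.0457, edgeR), or 1.27-fold lower, and the mTEC value was -0.21 (SE 0.10, adjusted p = 0.38). The cTEC call was lost in 13 of 20 alternatives, namely without a filter, with only the 6 cTEC libraries, with length and GC offsets, and without any 1 library but 4 or 10 (adjusted p up to 0.35). The effects did not pass as different (-0.14, 95% interval -0.45 to 0.17, adjusted p = 0.728).

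**Figure D3:**
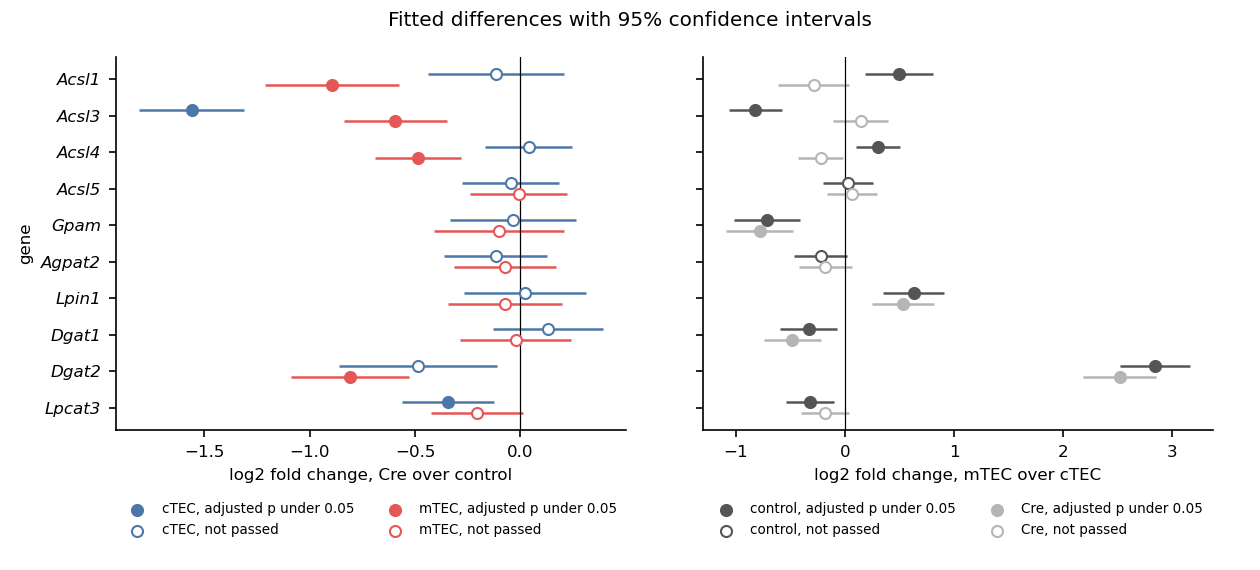
Fitted log2 fold changes (x axis) of the 10 genes (y axis) with 95% confidence intervals, Cre over control at left and mTEC over cTEC at right; filled circles passed and open circles did not. At left Acsl3 in cTEC lies farthest from 0, at -1.56, and at right Dgat2 lies at 2.84 in controls and 2.52 with Cre.

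In control libraries all 10 genes were expressed in both cell types, and most differed in level. Of the 10 genes, 4 were higher in mTEC, 4 were lower and 2 did not pass, where 59.2% of all genes passed. Dgat2 was higher in mTEC by 2.84 on the log2 scale (SE 0.15, adjusted p = 1.03e-11, edgeR), or 7.15-fold, Lpin1 by 0.63, Acsl1 by 0.49 and Acsl4 by 0.30. Acsl3 was lower by -0.82 (SE 0.12, adjusted p = 5.8e-06), Gpam by -0.72, Dgat1 by -0.33 and Lpcat3 by -0.32. The smaller of these were less firm: Dgat1 lost its call with DESeq2, with its size factors, without a filter and without library 1, 3, 7, 8 or 9, Lpcat3 without a filter and without library 3 or 9, and Acsl4 without library 1. With length and GC offsets Acsl4 stood at 0.64 and Dgat1 at -0.55, both farther from 0, and Agpat2 also passed (-0.54, against -0.22).

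With Cre, 4 of the 10 genes passed between the cell types, where 49.6% of all genes did. Dgat2 (2.52) and Lpin1 (0.53) were higher in mTEC, and Gpam (-0.78) and Dgat1 (-0.48) were lower, in log2 fold change. Acsl3, Acsl1, Acsl4 and Lpcat3, which passed in controls, stood at 0.14 (95% interval -0.11 to 0.39), -0.29, -0.22 and -0.18, and did not pass. The change of a cell type difference with Cre is the same contrast as the difference of the genotype effects, which passed for Acsl1, Acsl3 and Acsl4 and not for Lpcat3. With length and GC offsets 7 of the 10 passed with Cre, the added ones being Acsl3 at 0.30, Agpat2 at -0.41 and Lpcat3 at -0.26.

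In order of level per kb, control cTEC had Acsl3 first (68 CPM per kb) and Lpcat3 second (66.8), whose libraries overlapped, then Acsl5 (34.6). Dgat1 (23.4) and Agpat2 (22.5) overlapped, followed by Acsl4 (16.4), Gpam (10.3) and Acsl1 (7.82), which overlapped, Dgat2 (6.62) and Lpin1 (4.98). In Cre cTEC Acsl3 fell back to 23.1 CPM per kb, and its libraries overlapped those of Dgat1 above and Agpat2 below. In control mTEC Lpcat3 (53.4) and Dgat2 (47.3) led with overlapping libraries, followed by Acsl3 (38.4) and Acsl5 (35.3), which also overlapped, and Gpam was last by this length (6.23). In Cre mTEC Lpcat3 (46.3) and Acsl5 (35.1) led, Dgat2 (27) and Acsl3 (25.5) overlapped, and Lpin1 (7.33), Acsl1 (5.93) and Gpam (5.81) came last, each overlapping the next. These levels rest on the longest transcript, and the order turns in places when all exons of a gene are counted, since Acsl1 is then divided by 10483 in place of 5676 bases and Lpin1 by 9665 in place of 5581. By that length Lpin1 (4.46 CPM per kb) and not Gpam (5.77) was last in control mTEC, and Acsl1 (3.21) was last in Cre mTEC, below Lpin1 (4.23) and Gpam (5.38). Acsl3 (23.1) then stood above Dgat2 (19.8) in Cre mTEC, and Acsl3 (34.8) level with Dgat2 (34.7) in control mTEC. In control cTEC Acsl4 (16 CPM per kb) passed Agpat2 (15.7) and Dgat1 (14.5), and Dgat2 (4.86) passed Acsl1 (4.23). In Cre cTEC Acsl3 (20.9) and Acsl4 (16.4) stood above Dgat1 (15.7).

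Genes with the pattern most like Acsl3 were sought among 11452 other genes of at least 5 CPM on average, by the root mean square difference of the 12 centred log2 CPM values. They were Dkk3 (0.232), Gpr56 (0.263) and Efna3 (0.307), where the median gene stood at 0.69. Dkk3 was at 132, 79.2 and 97.8 CPM in the control cTEC libraries and at 29.2, 35.9 and 33.3 CPM in Cre cTEC, and from 37.4 to 47.3 CPM in mTEC. For Lpcat3 the nearest were Ino80c (0.0704), Pkm2 (0.081) and Pfkl (0.0828), where the median gene stood at 0.34. The log2 CPM of Lpcat3 varied little over the 12 libraries (SD 0.208, against 0.62 for Acsl3), so many genes of little variation lie near it.

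The rest of the pathway was read from 6 lists of 80 further genes, 74 of them tested. In cTEC 3 rose, 5 fell and 66 did not pass, where 9.01% of all genes passed, and in mTEC 3 rose, 3 fell and 68 did not pass, where 2.07% passed. Their median log2 fold changes were 0.01 and -0.03. In cTEC DESeq2 called 14 of them and voom 16. The count in cTEC was 3 without library 9, 5 without library 2, 3, 5 or 7, and 12 without library 11. In mTEC it was 1 without library 2 or 4 and 0 with edgeR without library 1, 3 or 5, where 9, 10 and 9 genes had an unadjusted p under 0.05.

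Among 14 other glycerolipid synthesis genes, Agpat3 and Lclat1 rose in Cre cTEC and 12 did not pass. Agpat3, an acyltransferase of the same reaction type as Agpat2, was at 129, 125 and 141 CPM in the control cTEC libraries and 368, 203 and 254 CPM in Cre cTEC, which is 1.07 higher on the log2 scale (SE 0.15, adjusted p = 0.000164, edgeR). In mTEC it ranged from 137 to 155 CPM, and the difference of the effects was 1.12 (adjusted p = 0.0066). All 3 Cre cTEC libraries stood above all others, with library 10 highest, and this gene kept its call in all 20 alternatives. Library 10 also had the highest sum of cTEC markers, 20800 CPM, and that sum's part in the Agpat3 result was not tested. Lclat1, which acts on cardiolipin and phosphatidylinositol, rose by 0.54 in log2 fold change (0.36 and adjusted p = 0.164 without library 10), a call also lost without library 7, 8 or 9. In mTEC Gpat2 (-1.34) and Lpin3 (-0.51) fell and 12 did not pass. Both calls were lost without library 1, 2, 3, 4 or 5, that of Gpat2 also without library 6 and that of Lpin3 without library 9.

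Of 15 other acyl-CoA synthetases and fatty acid transport proteins, Acss2, which makes acetyl-CoA from acetate, fell in Cre cTEC (-0.41, SE 0.12, adjusted p = 0.0421, edgeR) and 14 did not pass. Its call was lost in 11 of 20 alternatives. In mTEC Acss3 rose from a mean of 0.653 ± 0.113 to 2.24 ± 0.547 CPM (SD, n = 3 each). These levels were low, as 1 count was worth 0.0898 to 0.152 CPM in mTEC libraries. The Acss3 call was lost without any 1 library but 6, 10 or 11. Of 10 other genes of chain remodelling, Mboat1, which reacylates lysophospholipids, fell in both cell types. It stood at 17.1, 16.5 and 14.3 CPM in control cTEC, 12.3, 12 and 7.89 CPM in Cre cTEC, 36.6, 36.4 and 37.8 CPM in control mTEC, and 21, 25.6 and 26.2 CPM in Cre mTEC. Its log2 fold changes were -0.57 and -0.60 (adjusted p = 0.0421 and 0.0327, edgeR), calls lost in 11 and 5 of 20 alternatives. Mboat2 rose in mTEC from 3.77, 4.05 and 3.27 to 6.09, 7.83 and 6.94 CPM (log2 fold change 0.90, lost without library 1, 2, 3 or 5), and its cTEC value was -0.20.

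Of 14 genes that make the choline, ethanolamine and serine head groups, Etnk1, an ethanolamine kinase, rose and Chpt1, a cholinephosphotransferase, fell in Cre cTEC, and 12 did not pass. Etnk1 was at 157, 162 and 181 CPM in the control libraries and 305, 234 and 230 CPM with Cre (log2 fold change 0.62, SE 0.12, adjusted p = 0.00172, edgeR), and passed in all 20 alternatives. Chpt1 was at 128, 107 and 118 CPM in the control libraries and 93.4, 88.4 and 85.7 CPM with Cre (-0.40, SE 0.10, adjusted p = 0.017), lost without a filter and without library 7, 9 or 12. In mTEC edgeR and DESeq2 called none of the 14, voom called 1, and 1 had an unadjusted p under 0.05. Of 14 genes for acyl-CoA hydrolysis and binding, Acbd4 (-0.53, lost without library 7 or 9) and Acot9 (-0.43, lost in 11 of 20 alternatives) fell in Cre cTEC. In mTEC Acot1 rose (0.65, lost in 7 of 20 alternatives), a gene with close paralogs whose counts are therefore uncertain. Of 7 genes for phosphatidylinositol and cardiolipin, edgeR called none in either cell type, with 3 and 0 at an unadjusted p under 0.05. DESeq2 called 2 of them in cTEC and none in mTEC, and voom none in either.

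**Figure D4:**
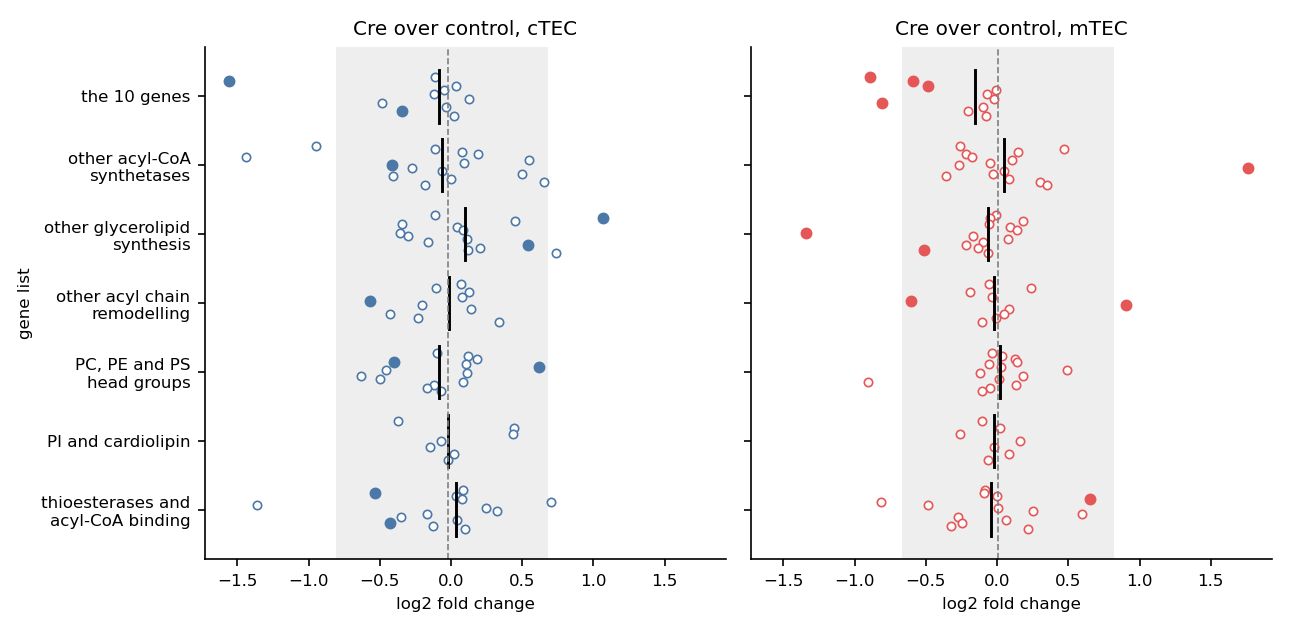
Log2 fold change of Cre over control (x axis) for the 10 genes and the 6 further lists (y axis) in cTEC (left) and mTEC (right); circles are genes, filled where they passed, black marks are list medians, the dashed line is the median of all genes tested and the grey band holds their 5th to 95th percentile. In mTEC 4 of the 10 genes are filled to the left of 0, while the medians of the further lists lie between -0.06 and 0.05.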

How the data were processed

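Read counts for each gene symbol in 12 libraries were used as the authors deposited them, without normalization. The tools and build named by the submitters' processing notes are edgeR, HTSeq, STAR and mm9. The sources used here give no version, annotation or strand setting. Per the labels' protocols, the low-input SMARTer kit was used on cells sorted into lysis buffer.

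From the counts, genes passing filterByExpr were tested with edgeR 4.0.16 (quasi-likelihood, TMM, 4 groups, 8 residual degrees of freedom, two-sided) in 5 comparisons in R 4.3.3. Counts were simulated for the cTEC comparison over 17268 genes, with 200 genes changed, all of at least 5 CPM on average. Of these, 49.3% of genes changed 1.5-fold and 91% of those changed 2-fold were called. More genes than that passed in the cTEC data, and changes in mTEC or in lower genes were not simulated. The rates therefore need not hold for the data. The standard error is the log2 fold change over the root of F. Alternatives used DESeq2 1.42.0, its size factors, limma 3.58.1 voom, a robust fit, no filter, 5 CPM in 3 libraries, only the 6 libraries of a comparison, and leaving out each library in turn. Splines of transcript length and GC content per library (90.04% of genes tested had both, from GENCODE M21) and fits for the genes beyond the 10 were added after seeing the data. The 10 genes and all lists were chosen with earlier results of these data known. All 10 genes are named, with up to 4 passing genes per list and cell type and the 3 genes most like Acsl3 and Lpcat3. No adjusted p is given over a list alone. Depth limits low genes most: counting intervals are not given, as reads without molecular identifiers are not independent.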

Additional observations from a re-analysis of the deposited data

Results flagged for a closer look

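For 3 of the 10 genes the change with Cre was not the same in cTEC and mTEC by edgeR's test of the difference itself, where 4.01% of all genes passed. For Acsl3 the cTEC effect minus the mTEC effect was -0.97 on the log2 scale (SE 0.17, adjusted p = 0.00293), and it passed in all 19 alternatives. For Acsl1 it was 0.78 (adjusted p = 0.0485, from 0.00267 to 0.13 over the alternatives) and for Acsl4 0.52 (adjusted p = 0.0364, from 0.00181 to 0.123). The calls of Acsl1 and Acsl4 were lost in 10 and 9 of 19 alternatives. Acsl3 thus fell more in cTEC, and Acsl1 and Acsl4 moved lower in mTEC relative to cTEC. The effects did not pass as different for Acsl5 (-0.04, adjusted p = 0.941, edgeR). Nor did they for any of the 15 other acyl-CoA synthetases and fatty acid transport proteins tested.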

How the results depend on the processing

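No paired analysis was possible because each library has its own number, and the labels do not say which libraries share mice. If cTEC and mTEC libraries came from the same mice, the tests between cell types and of the difference of effects ignored that pairing. Over the alternatives, 889 of 990 values of the 10 genes kept their direction and side of the threshold, 50 lost a call, 8 gained one and 43 changed sign, all of the last without a call. The count of the 10 genes passing in cTEC was 1 in place of 2 without a filter, with the 6 libraries compared and with length and GC offsets, and ran from 1 to 2 without 1 library. It ran from 2 to 4 in mTEC (2 without library 1, 3 or 5) and from 1 to 3 for the difference of the effects. Between cell types with Cre it was 7 with length and GC offsets. The count over the further lists in cTEC was 14 with the filter of 5 CPM, 14 with DESeq2 and 16 with voom, and ran from 3 to 12 without 1 library, and in mTEC from 0 to 8. Over all genes in mTEC the count of 358 was 1049 without a filter, 1026 with the 6 libraries, 1672 with voom, 599 with DESeq2 and between 78 and 984 without 1 library. In cTEC the count of 1555 ran from 1018 to 2294 without 1 library, and for the difference of the effects that of 692 ran from 371 to 1644. The causes were not tested. Foxn1 lost its call in cTEC with edgeR's robust fit, and in mTEC with that fit, with DESeq2 and without library 1, 3 or 5. For the difference of the effects the count over all genes was 1140 without a filter, 1131 with DESeq2 and 1398 with voom. Values that changed sign in cTEC were those of Acsl4 with voom (-0.0151), Acsl5 without a filter (0.002), Gpam without a filter (0.0166) and Lpin1 with voom (-0.0804) and offsets (-0.1011). In mTEC they were Acsl5 with the 6 libraries (0.0042), and with offsets Agpat2 (0.0215) and Dgat1 (0.057). For the difference of the effects, Acsl5 gave 0.0109 with DESeq2's size factors, 0.0112 with DESeq2, 0.0127 with voom and 0.0435 without a filter. Agpat2 gave 0.004, 0.0056, 0.0062 and 0.0372 in the same order, Gpam -0.1128 with voom and -0.0693 with offsets, and Lpin1 -0.0323 and -0.0378. Without 1 library, values in cTEC ran from -0.262 to 0.046 for Acsl1, -0.0224 to 0.0801 for Acsl4, -0.1014 to 0.0151 for Acsl5, -0.1766 to 0.05 for Gpam and -0.1415 to 0.099 for Lpin1. In mTEC they ran from -0.1263 to 0.0357 for Acsl5, -0.1908 to 0.0197 for Lpin1 and -0.0865 to 0.0271 for Dgat1. For the difference they ran from -0.093 to 0.0842 for Acsl5, -0.0705 to 0.252 for Gpam, -0.1009 to 0.0518 for Agpat2 and -0.0629 to 0.2158 for Lpin1, and between cell types with Cre from -0.0489 to 0.1318 for Acsl5. Library 11 had the fewest counts, 4804697.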
